A study of Glycine max with 48 samples.

Results

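Across 4 organs of the soybean flower and 4 growth treatments, 57 genes of 55897 with GLYMA_ identifiers kept their group means within 1.6-fold at a moderate level. They were chosen by 2 conditions on the deposited values. The mean FPKM of each of the 16 groups had to be at least 20, and the highest of the 16 group means could be at most 1.6 times the lowest. FPKM counts sequenced fragments for each kilobase of a gene and sets them against all mapped fragments of that library. The first condition alone left 1206 genes, so the 57 were 4.73% of the genes expressed at that level throughout. Both conditions were applied to the group means themselves, so the evenness of these genes over the 16 groups is how they were picked and is not a result. What follows on their levels and changes is therefore a description, and calls of a model fitted over all genes are printed beside the share of all genes called.

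Evenly expressed genes, often called housekeeping or reference genes, are used as a yardstick in expression studies: the level of another gene is divided by theirs so that differences in the amount of RNA between samples drop out. A gene can serve in this way only if its own level is steady in the tissues and conditions compared, and reference genes chosen in leaves or roots can fail in anthers or under heat. Because FPKM is a share of a library, a gene that reads as steady has kept its share of the fragments, which is not the same as a steady number of molecules per cell. In whole organs, moreover, fewer cells of a type and less RNA per cell cannot be told apart.

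Sepals, anthers, ovaries and stigmas were taken from flowers of the soybean (Glycine max) cultivar Magellan, and each of the 16 groups held 3 libraries, 48 in all. Control plants had 28 °C in the day and 24 °C at night with 100% of the water they could transpire. Water-deficit plants had the same temperatures and 30% of the water, heat-stressed plants had 38 °C in the day and 28 °C at night with 100% of the water, and plants under combined stress had the higher temperatures and 30% of the water. All plants were inoculated with Bradyrhizobium japonicum, and treatment began at the opening of a first flower, which took 16 to 18 days under control conditions. Each library was a pool of 10 to 15 flowers from 8 to 10 plants. The plants stood in 4 growth chambers, and the sources used here do not assign chambers to treatments, so an effect of the chamber and one of the treatment cannot be told apart if each treatment had its own chamber. The files pair no gene names with the identifiers, and 0 of the 57147 identifiers matched the reference gene table. Genes are therefore given by identifier, without names or roles, and the organ labels could not be checked against marker genes.

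Summed FPKM per library lay between 589041 and 664386, and 21198 to 31827 genes reached 1 FPKM in a library. Read counts were not analysed here, so intervals for counting error could not be formed. From the steps between low values, the deepest of the libraries of each organ was estimated at 1.3 to 1.6 times the shallowest. The lowest mean correlation of a library with the others of its group was 0.934, in sepal control replicate 3. The 4 organs were deposited as separate files, and levels set side by side across organs rest on the authors' scaling and were not tested.

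The 57 genes were of moderate level. The mean over the 16 group means ran from 23.7 to 327 FPKM, with a median of 34.8, against a median of 69.7 for the 1206 genes that met the first condition. The ratio limit holds a gene's mean within 1.6 times its lowest group mean, so the rule itself favors a lower mean. Nothing is read from this difference. It was under 50 FPKM for 43 of the genes, between 50 and 100 for 11 and over 100 for 3. Soybean identifiers carry the chromosome number, and the genes lay on 19 chromosomes, with at most 6 on any of them (chromosomes 2 and 8).

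Few of the genes were close to level. The ratio of the highest to the lowest group mean had a median of 1.49 and ran from 1.18 to 1.6. It was at most 1.2 for 2 genes, at most 1.3 for 3, at most 1.4 for 14 and at most 1.5 for 29. Over all 1206 genes the median ratio was 3.14, with quartiles of 2.17 and 5.85. The heat map of group means shows where each gene departed from its own mean.

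**Figure D1:**
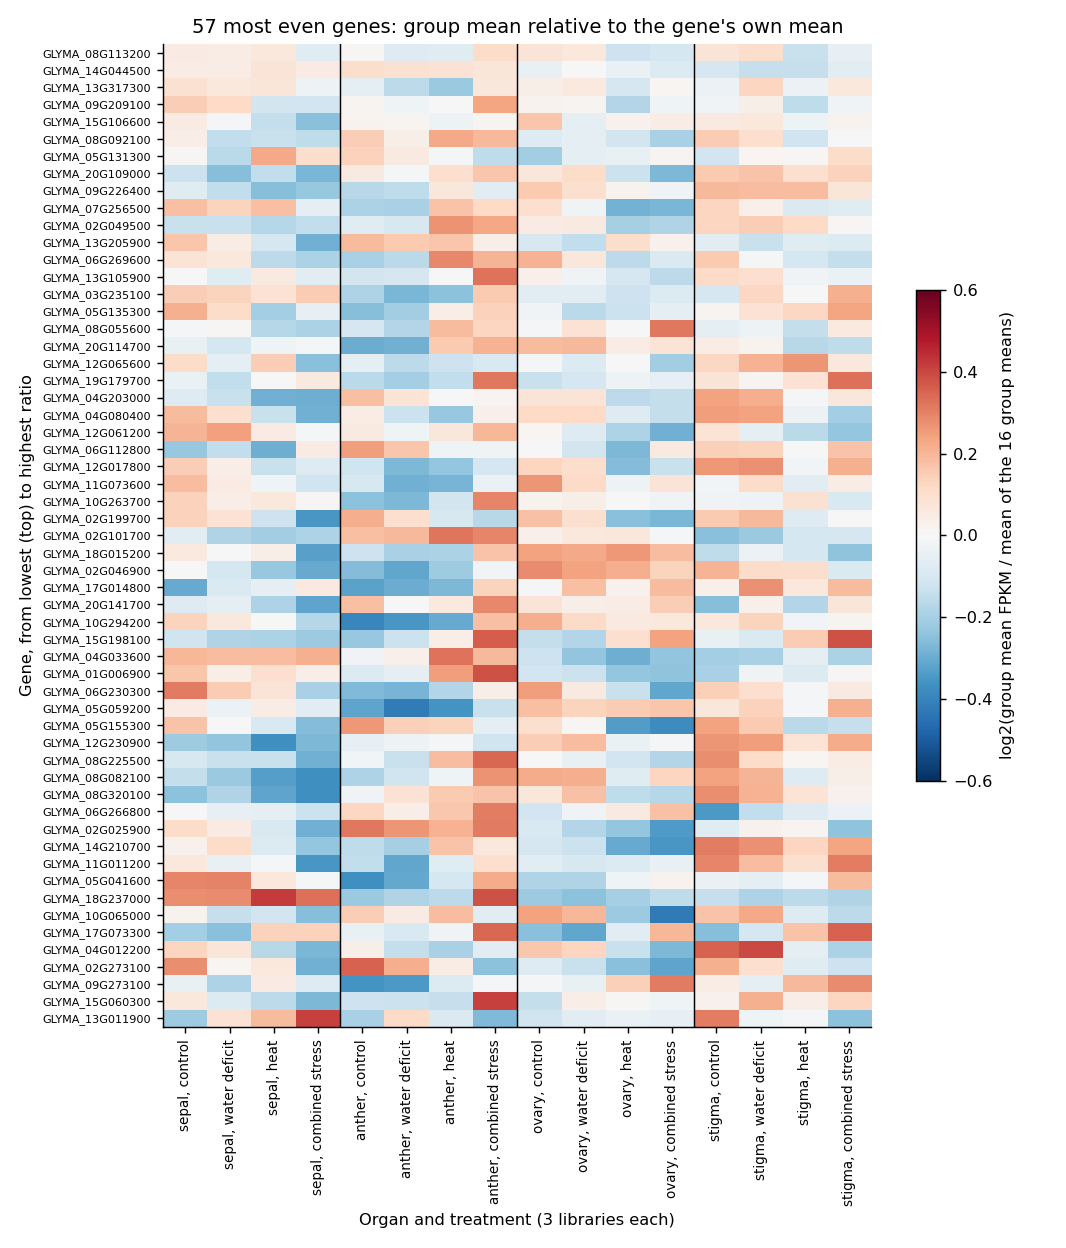
Group means of the 57 genes (rows, from the lowest ratio at the top to the highest at the bottom) in the 16 groups of 3 libraries (columns, by organ and treatment), as log2 of the group mean FPKM over the gene's mean of the 16 group means. The color scale runs from -0.6 to 0.6; the upper rows are pale throughout, and in the lower rows sepals under combined stress are often blue and anthers under combined stress often red.

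GLYMA_08G113200 had the lowest ratio, 1.18. Its group means ran from 25.9 ± 0.876 FPKM (SD, n = 3) in heat-stressed stigmas to 30.6 ± 0.454 in anthers under combined stress. In control libraries it stood at 26.3, 28.6 and 33.2 FPKM in sepals, 26.7, 28.8 and 29.95 in anthers, 30.8, 27.96 and 30.9 in ovaries, and 29.0, 33.0 and 27.8 in stigmas. The control libraries of the 4 organs overlapped. Over the 12 libraries of an organ its lowest, median and highest values were 23.4, 28.5 and 33.2 FPKM in sepals, 22.0, 28.9 and 31.8 in anthers, 21.7, 28.4 and 31.8 in ovaries, and 24.9, 28.0 and 33.0 in stigmas. The organ means differed by a ratio of only 1.03, and single libraries of a group differed by more than the groups did: the SD of log2 FPKM was 0.14 within groups and 0.09 between group means.

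GLYMA_14G044500 had a ratio that was also 1.18 and was the lowest in level of the 57, with a mean of 23.7 FPKM. It read 26.0, 25.8 and 21.4 FPKM in control sepals, 24.3, 24.7 and 27.4 in control anthers, 21.5, 21.5 and 25.8 in control ovaries, and 23.0, 18.8 and 24.3 in control stigmas. Its treatment means lay close together in each organ, with a small step between organs. As for GLYMA_08G113200, the SD of log2 FPKM was larger within groups (0.11) than between group means (0.09). Within an organ the 4 treatment means differed by ratios of 1.02 in sepals and in anthers, 1.06 in ovaries and 1.05 in stigmas, while the organ means ran from 25.2 FPKM in anthers to 21.9 in stigmas. The SD over the 12 libraries of an organ was between 1.23 and 1.71 FPKM, so the organs overlapped. Over all 48 libraries this gene had the narrowest span of the 57, from 18.8 to 28.0 FPKM, a ratio of 1.49.

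GLYMA_13G317300, with a ratio of 1.27, was the other gene under 1.3. It was lowest in heat-stressed anthers, at 28.5, 25.1 and 22.2 FPKM, and highest in water-deficit stigmas, at 31.5, 32.8 and 32.3, and these libraries did not overlap. The next genes in order were GLYMA_09G209100 and GLYMA_15G106600 (1.33 each), GLYMA_08G092100 (1.34), GLYMA_05G131300 and GLYMA_20G109000 (1.36 each), GLYMA_09G226400 (1.37) and GLYMA_07G256500 (1.38). An order among them is not firm. When replicate 1, 2 or 3 was left out of every group in turn, the ratio of GLYMA_15G106600 moved between 1.31 and 1.52 and that of GLYMA_09G209100 between 1.31 and 1.46. GLYMA_15G106600 spanned 21.3 to 42.5 FPKM over the 48 libraries, and its spread within groups (SD of log2 FPKM 0.20) was larger than that between group means (0.09).

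The most abundant of the 57 was GLYMA_18G015200, with a mean of 327 FPKM and a ratio of 1.5. Its lowest, median and highest values over the 12 libraries of an organ were 253, 326 and 372 FPKM in sepals, 256, 303 and 409.9 in anthers, 352, 382 and 418 in ovaries, and 259.7, 299 and 362 in stigmas. The ovary stood above the stigma in nearly every library, and the other organs overlapped widely. Its lowest group was the sepal under combined stress, at 253, 273 and 258 FPKM, where all 3 libraries lay below the control sepals at 337, 321 and 364. Next in level were GLYMA_14G210700 (mean 114 FPKM), GLYMA_09G273100 (109.6), GLYMA_02G199700 (89.0) and GLYMA_12G065600 (83.9). At the other end, GLYMA_08G055600 (23.8 FPKM) and GLYMA_09G209100 (24.6) stood just above GLYMA_14G044500.

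**Figure D2:**
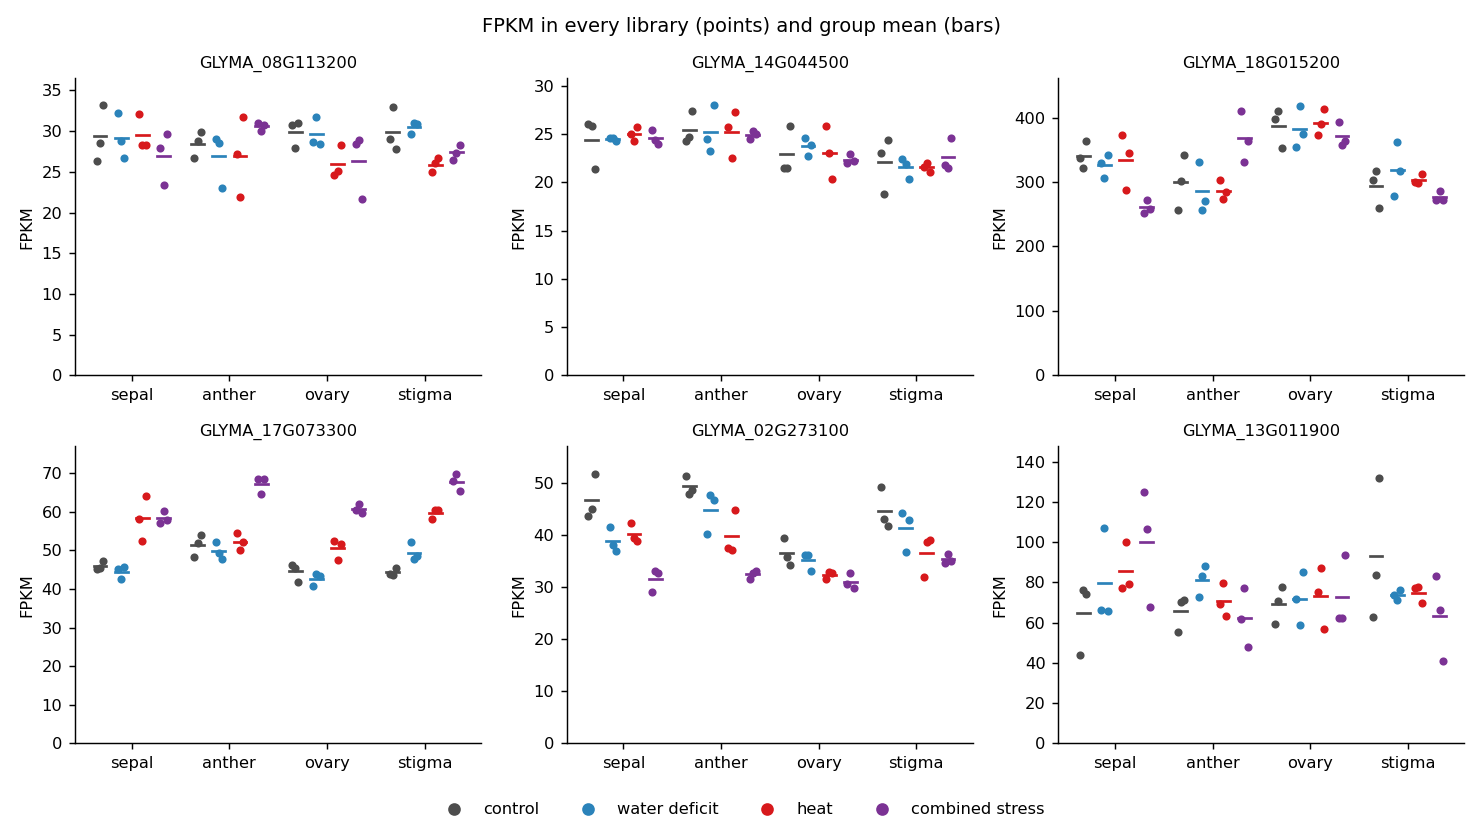
FPKM (vertical axis, from 0) of 6 of the genes in each of the 48 libraries (points), by organ (horizontal axis) and treatment (color), with short bars at the means of 3 libraries. GLYMA_08G113200 and GLYMA_14G044500 are level, GLYMA_18G015200 is the most abundant, GLYMA_17G073300 is highest under combined stress in every organ, level with heat in sepals, GLYMA_02G273100 is lowest under combined stress in every organ, and GLYMA_13G011900 scatters from 40.9 to 132 FPKM.

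Single libraries spread more than group means. Over the 48 libraries the ratio of the highest to the lowest value had a median of 1.72 and ran from 1.49 to 3.23. For 6 genes all 48 libraries lay within 1.6-fold, and for 49 they lay within 2-fold, as they did for 77 of the 1206 genes. None of the 57 was listed at 0 in any library, which held for all but 5 of the 1206 genes. The coefficient of variation within a group, taken as the median over the 16 groups, had a median of 6.69% over the 57 genes (3.56% to 19.6%) and of 8.74% over the other 1149. Scatter between libraries also moves the group means that the rule used, so the rule favors a low spread. Nothing is read from these differences.

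The spread between group means was for most genes larger than the spread between replicates, even in these genes. The SD of log2 FPKM had a median of 0.17 between group means and 0.12 within groups, and it was smaller between than within groups for 8 genes. A group mean averages 3 libraries, so a smaller SD between groups does not show that groups differed less than replicates. In 56 of the 57 genes the 3 libraries of the highest group all lay above the 3 of the lowest, where 99.4% of the 1206 genes did so. Those 2 groups are the extremes of 16, so a gap between them follows largely from how they are picked.

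In most of the genes the means of the treatments within some organ lay farther apart than the organ means over 12 libraries. The ratio between the highest and lowest treatment mean within an organ had a median of 1.2 in sepals, 1.25 in anthers, 1.16 in ovaries and 1.17 in stigmas. The ratio between the organ means had a median of 1.2. Between the control means of the organs, which rest on 3 libraries each, the ratio had a median of 1.29, above each of those treatment medians. In 45 genes the treatment ratio in at least 1 organ was above the ratio between organs, and in 12 genes the ratio between organs was above every treatment ratio. A treatment mean rests on 3 libraries and an organ mean on 12, so chance spread adds more to the first kind of ratio. The organ with the largest treatment ratio was the anther for 23 genes, the sepal for 15, the ovary for 10 and the stigma for 9.

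The widest step between organ means, a ratio of 1.45, was that of GLYMA_18G237000, whose treatment ratio in anthers was larger still, at 1.52. It stood between 32.2 and 41.6 FPKM in the 12 sepal libraries, between 21.3 and 27.6 in ovaries and between 21.8 and 28.5 in stigmas, so the sepal lay above the ovary and the stigma without overlap. In anthers it ran from 19.7 to 38.8 FPKM, reaching the sepal's range under combined stress. Among the 12 genes led by organ, GLYMA_02G101700 was higher in anthers, at 57.7 to 69.3 FPKM, than in sepals (39.9 to 54.2), the ovary (46.4 to 55.6) and the stigma (40.2 to 50.5), with no overlap. GLYMA_05G059200 was lower in anthers, at 37.0 to 53.7 FPKM, than in ovaries, at 54.5 to 62.1. These steps are in FPKM as deposited, and those between the anther and another organ depend on the scaling. Median-of-ratios scaling over all 48 libraries multiplied control anthers by 2.36 and control ovaries by 0.778.

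The extremes fell unevenly over the groups. The lowest group mean was in sepals under combined stress for 16 of the 57 genes (28.1%), against 12.4% of the 1206 genes, and in ovaries under combined stress for 10. The highest was in anthers under combined stress for 11 genes (19.3%, against 15.8% of the 1206), in control anthers for 7 and in stigmas under combined stress for 7. Control or water-deficit anthers held the lowest mean of 15 genes (26.3%), against 42.0% of the 1206. Stigma groups were the lowest for 4 genes and the highest for 19. These shares were not tested, since the rule that chose the genes acted on the same means.

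The step that removed most genes was the one between organs. Of the 1206 genes, the 4 treatment means lay within 1.6-fold for 80.4% in sepals, 78.4% in ovaries, 80.02% in stigmas and 48.3% in anthers, and for 33.9% in all 4 organs. The 4 organ means lay within 1.6-fold for 22.2% of the genes in the control and for 30.3% under combined stress. With the anther left out, 20.6% of the 1206 genes kept all 12 remaining group means within 1.6-fold, against 4.73% over the 16.

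Each limit ran through a continuous range of genes. Just inside the ratio limit were GLYMA_09G273100 (1.59), GLYMA_15G060300 and GLYMA_13G011900 (1.6 each), and just outside were GLYMA_04G008100 (1.6014), GLYMA_17G053500 (1.60172) and GLYMA_14G053300 (1.60455). The lowest group means just over the floor of 20 FPKM were those of GLYMA_10G294200 (20.1 FPKM), GLYMA_04G012200 (20.4) and GLYMA_04G033600 (20.8). Just under it were GLYMA_19G204400 (19.99), GLYMA_12G056500 (19.4) and GLYMA_18G054900 (18.9), all with ratios under the limit. When replicate 1, 2 or 3 was left out of every group, 48, 39 and 54 genes met the rule. Of the 57, 32 met it in all 3 cases and 25 missed it in at least 1, and the 16 genes of lowest ratio were among the 32.

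Each stress was compared with control within each organ by limma on log2(FPKM + 1), over all genes with a group mean of at least 1 FPKM. A gene was called at a Benjamini-Hochberg adjusted p under 0.05. Of the 57 genes, all tested in every organ, 40 were called in at least 1 of the 12 comparisons (70.2%) and 17 in none. Of the other 1149 genes at the floor, 91.6% were called in at least 1 of them. The rule limits how far the 57 could move, so nothing is read from this difference.

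Under water deficit alone, limma called 0 of the 57 genes in any organ, and few genes were called at all: 0.208% of tested genes in sepals, 0.00351% in anthers, 0.234% in ovaries and 0.164% in stigmas. At an unadjusted p under 0.05 in limma there were 3 of the 57 in sepals, 0 in anthers, 1 in ovaries and 1 in stigmas. Over all tested genes there were 4183 of 33179 in sepals, 561 of 28529 in anthers and 2625 of 33336 in ovaries. The rule limits how far the 57 could move, so nothing is read from these counts. The median log2 fold change of the 57 was -0.06 in sepals, -0.05 in anthers, -0.03 in ovaries and -0.00360 in stigmas. Over all tested genes it was -0.04, 0.00202, -0.00285 and 0.03.

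Under heat, 1 of the 57 was called higher and 2 lower in sepals, where 4.11% of all tested genes were called higher and 7.19% lower (11.3% together). In anthers 3 were called higher and 0 lower (14.5% and 3.96% of all tested genes, 18.5% together). In ovaries 0 were called higher and 9 lower (5.99% and 10.8%, 16.8% together), and in stigmas 1 higher and 2 lower (6.77% and 7.16%, 13.9% together). The median log2 fold change of the 57 was -0.10 in sepals, 0.04 in anthers, -0.13 in ovaries and -0.08 in stigmas, against -0.07, 0.20, -0.01 and 0.01 over all tested genes. The small counts turned on single libraries, and the calls over all tested genes moved as well. With 1 library of the 2 groups compared left out, those were 2096 to 3960 in sepals (3748 with all libraries) and 2570 to 6739 in anthers (5277). In ovaries they were 3406 to 4280 (5610) and in stigmas 2272 to 3528 (4682). Of the 57, 1 was called in sepals without control replicate 1 or 2 or any of the heated replicates. In anthers 1 was called without any of the control replicates or heated replicate 3, and 6 without heated replicate 2. In ovaries 5 were called without control replicate 3 or heated replicate 1, and in stigmas 1 was called without heated replicate 1 or 3.

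Combined stress gave the most calls in each organ. In sepals 2 of the 57 were called higher and 17 lower, where 7.19% of all tested genes were called higher and 16.9% lower (24.1% in all). In anthers 19 were called higher and 3 lower, where 51.8% of all tested genes were called higher and 10.7% lower (62.4% in all). In ovaries 4 were called higher and 11 lower (11.0% and 16.5% of all tested genes, 27.5% in all), and in stigmas 3 higher and 7 lower (11.1% and 14.9%, 26.0% in all). The median log2 fold change of the 57 was -0.19 in sepals, 0.19 in anthers, -0.12 in ovaries and -0.05 in stigmas, against -0.10, 0.61, -0.02 and -0.01 over all tested genes.

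The directions in anthers depended on the scaling, and the split in the other organs moved under some scalings and less under others. With the 12 anther libraries rescaled by the median of ratios, which sets the typical gene and not the total equal between libraries, 0 of the 57 were called higher and 38 lower under combined stress, where 16.4% of all tested genes were called higher and 20.5% lower. The median log2 fold change of the 57 was then -0.54. Under heat 0 were then called higher and 3 lower (8.26% and 7.16% of all tested genes), with a median of -0.23. The rescaling moved the median over all tested anther genes from 0.61 to 0.07 under combined stress and from 0.20 to 0.000130 under heat. In sepals under combined stress it gave 3 higher and 7 lower (10.4% and 11.6% of all tested genes), with a median of -0.07. With library sums set equal, 6 of the 57 were called higher and 6 lower in ovaries under combined stress (14.4% and 13.5% of all tested genes, median of the 57 -0.04). Under heat 1 was then called higher and 6 lower there (8.3% and 8.59%), and under combined stress in stigmas 5 were called higher and 5 lower (12.3% and 13.8%). In anthers under combined stress it gave 28 higher and 2 lower (56.1% and 9.58%), and in sepals 2 higher and 12 lower (7.73% and 15.2%). The median of ratios within the organ gave 0 higher and 9 lower in ovaries under heat (6.96% and 9.97%). Under combined stress it gave 5 higher and 7 lower in ovaries (12.9% and 15.1%) and 4 higher and 6 lower in stigmas (12.4% and 15.0%). Leaving out 1 library of the 2 groups compared lowered the number called under combined stress in sepals to 10 (without combined replicate 1) or 12 (without control replicate 1 or combined replicate 2 or 3). In ovaries it fell to 9 without control replicate 3 and 8 without combined replicate 2. In stigmas it fell to 3 without control replicate 1, 4 without control replicate 3 or combined replicate 1, and 2 without combined replicate 2. The calls over all tested genes fell in such fits too. They were 5622 to 7860 in sepals (7996 with all libraries), 6960 to 7618 in ovaries (9154) and 5790 to 7395 in stigmas (8745).

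GLYMA_17G073300 was called in 6 comparisons and higher in each. In anthers 0 of the 57 were called higher under heat or combined stress after median-of-ratios rescaling. Any call of this gene there was thus not kept as higher. In stigmas it stood at 44.0, 43.6 and 45.5 FPKM in the control, 52.2, 47.7 and 48.5 under water deficit, 58.1, 60.4 and 60.5 under heat and 68.0, 69.8 and 65.5 under combined stress. The 4 groups of stigma libraries did not overlap, and the mean was higher at each step from control through water deficit and heat to combined stress. The log2 fold change against control was 0.42 (SE 0.08) under heat and 0.60 (SE 0.08) under combined stress, and both calls were kept under all 12 alternatives tried. In ovaries it stood at 46.3, 45.5 and 41.9 FPKM in the control and 60.6, 62.1 and 59.6 under combined stress, and in sepals at 45.1, 45.6 and 47.3 against 57.04, 60.3 and 57.8. The control means of the 4 organs lay within a ratio of 1.16, from 44.4 ± 0.992 FPKM in stigmas to 51.4 ± 2.96 in anthers.

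GLYMA_05G155300 was also called in 6 comparisons and lower in each. Its log2 fold change was -0.42 (SE 0.09) in sepals, -0.31 (SE 0.10) in anthers, -0.46 (SE 0.10) in ovaries and -0.37 (SE 0.11) in stigmas under combined stress. Under heat it was -0.43 (SE 0.10) in ovaries and -0.39 (SE 0.11) in stigmas. GLYMA_02G273100 had the largest called change in sepals, with a log2 fold change of -0.55 (SE 0.09) under combined stress. It fell there from 43.7, 45.1 and 51.8 FPKM in the control to 29.2, 33.1 and 32.7, with no overlap, and its call was kept under all 12 alternatives. In anthers it stood at 51.4, 48.03 and 48.8 FPKM in the control and 31.7, 32.8 and 33.2 under combined stress.

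GLYMA_10G065000 had the largest called change in ovaries. It stood there at 35.0, 34.0 and 33.3 FPKM in the control, 33.1, 31.4 and 34.9 under water deficit, 26.5, 24.6 and 23.2 under heat and 23.1, 22.8 and 18.6 under combined stress. The stressed libraries at the higher temperatures lay below all control and water-deficit libraries. The log2 fold change was -0.45 (SE 0.09) under heat and -0.65 (SE 0.09) under combined stress, and both calls were kept under all 12 alternatives. In heated anthers the same gene scattered over 32.4, 23.0 and 42.9 FPKM.

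In sepals under heat the largest called change was that of GLYMA_05G135300, at -0.40 (SE 0.09), and it lost its call under 2 of 12 alternatives. In anthers under combined stress it was that of GLYMA_18G237000, which stood at 19.7, 24.8 and 27.2 FPKM in the control and at 38.8, 34.6 and 35.9 under combined stress, a log2 fold change of 0.60 (SE 0.13). After median-of-ratios rescaling within the anther its value was -0.12, and it was no longer called. In anthers under heat it was that of GLYMA_06G269600, at 65.1, 63.3 and 64.2 FPKM in the control and 83.7, 81.1 and 104 under heat, a log2 fold change of 0.47 (SE 0.12). It lost its call under 5 of 12 alternatives, which were the rescaling within the anther (0.20) and leaving out any of the control replicates or heated replicate 3.

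Summed over the 57 genes, the level ran from 2427 to 3001 FPKM over the 48 libraries, a ratio of 1.24, and made up 0.370% to 0.502% of the summed FPKM of a library. In sepals it was 2774 ± 88.8 FPKM (SD, n = 3) in the control and 2443 ± 18.9 under combined stress. In anthers it was 2583 ± 128 and 2933 ± 101, in ovaries 2812 ± 10.9 and 2658 ± 52.1, and in stigmas 2841 ± 36.2 and 2766 ± 59.7. The libraries under combined stress lay all below control in sepals and the ovary and all above it in anthers, and the groups overlapped in stigmas. The plot of the sum by library sets it above the multiplier that a median-of-ratios scaling over all 48 libraries gave each library.

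**Figure D3:**
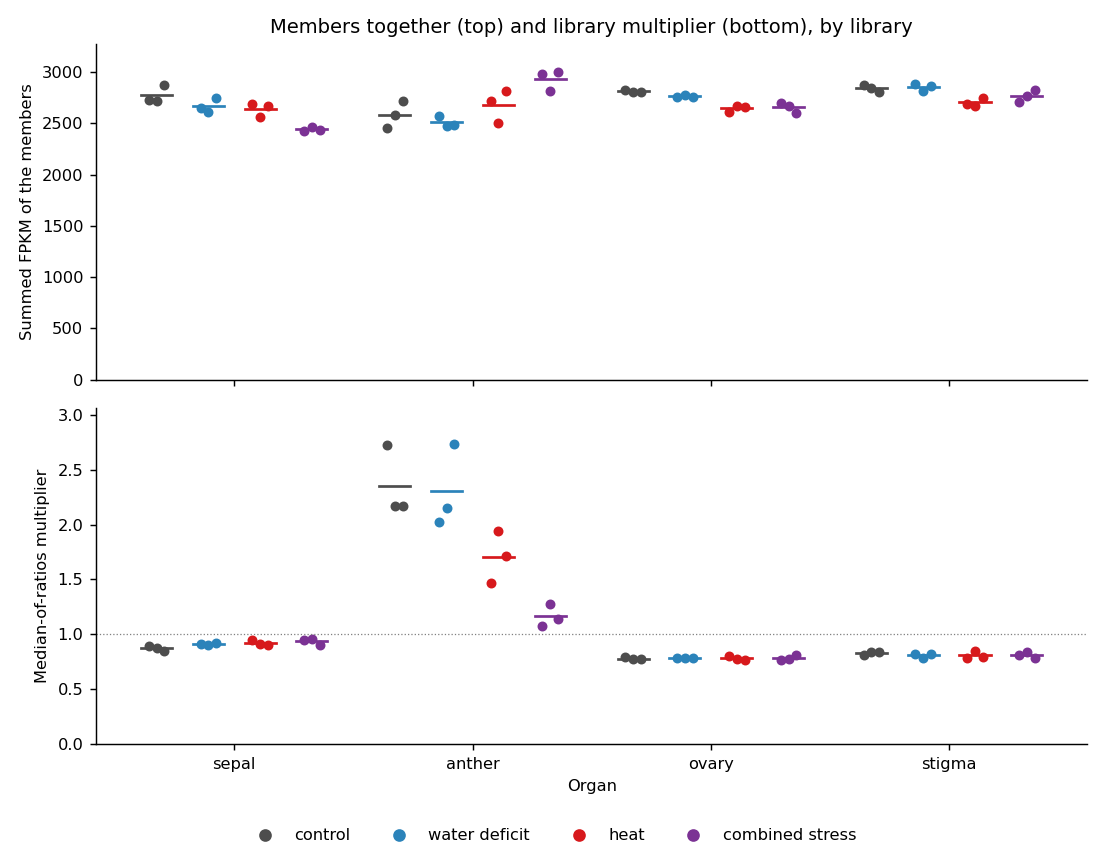
Top, summed FPKM of the 57 genes in each library (points) and mean of 3 libraries (bars), by organ and treatment, on an axis from 0. Bottom, the factor by which median-of-ratios scaling multiplied each library. The sums lie between 2427 and 3001 FPKM. The multipliers are highest in control and water-deficit anthers, lower in heated anthers and lower again in anthers under combined stress. All anther libraries stand above those of the other organs.

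How even these genes are depended on what was held equal between libraries. Median-of-ratios scaling over all 48 libraries multiplied control anthers by 2.36 ± 0.323 (SD, n = 3), water-deficit anthers by 2.30 ± 0.379, heated anthers by 1.71 ± 0.234 and anthers under combined stress by 1.17 ± 0.103. The multipliers of the other organs had group means between 0.778 and 0.937. On this scale 69 genes met the rule and 0 of the 57 were among them, and the ratios of the 57 ran from 2.25 to 4.82 with a median of 3.28. All 69 of those genes had their lowest deposited group mean in control or water-deficit anthers. Their mean over the 12 groups outside the anther was 2.01 to 3.83 times that in control anthers (median 2.71).

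With only the 1206 genes at the floor as the reference for the scaling, control anthers were multiplied by 1.32 ± 0.115 and control stigmas by 0.841 ± 0.0330. On that scale 103 genes met the rule, 25 of the 57 among them, and the ratios of the 57 ran from 1.23 to 2.19 with a median of 1.64. With the sum of each library set equal, 114 genes met the rule, 49 of the 57 among them. Over the 12 groups outside the anther, 44 of the 57 stayed within 1.6-fold after median-of-ratios scaling over all 48 libraries, and 33 of these also stayed at 20 FPKM or more. The scalings with the 1206 genes as reference and without the anther were chosen after the data were seen. Which scaling comes nearest to equal amounts of RNA per cell was not tested.

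**Figure D4:**
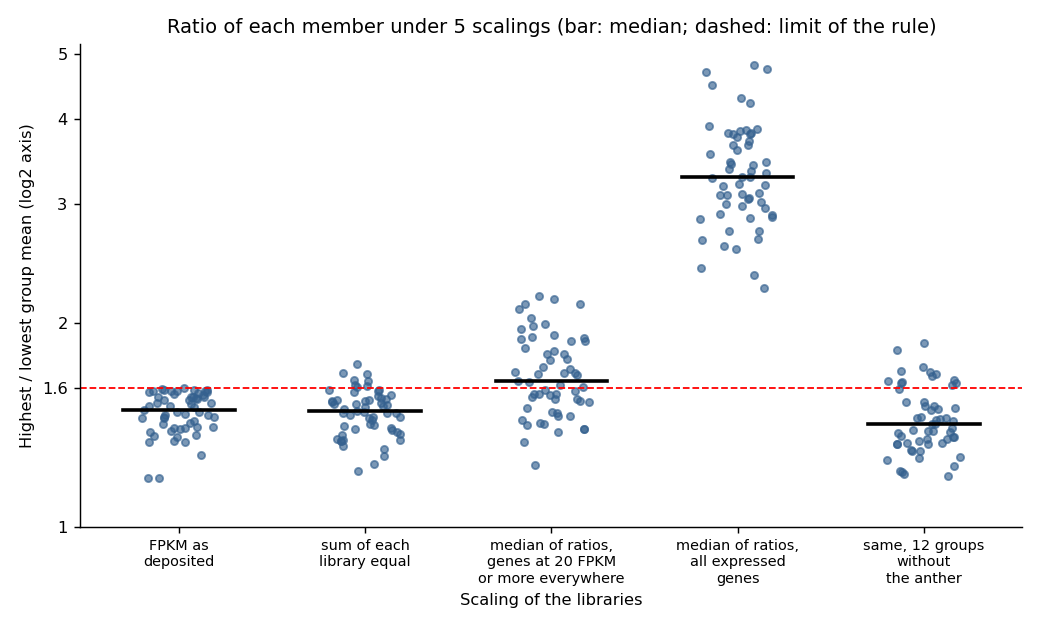
Ratio of the highest to the lowest group mean (log2 axis) of each of the 57 genes (points) under 5 scalings, with the median as a bar and the limit of 1.6 as a dashed line. All points lie at or under the limit as deposited, by construction; all lie above it, between 2.25 and 4.82, after median-of-ratios scaling over all expressed genes, and 44 lie within it when the anther groups are left out.

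GLYMA_08G113200 had a ratio of 3.28 under median-of-ratios scaling over all 48 libraries, 1.56 with the 1206 genes as reference, 1.21 with library sums set equal and 1.34 without the anther. GLYMA_14G044500 had 3.44, 1.89, 1.24 and 1.32, and GLYMA_13G317300 had 3.09, 1.54, 1.31 and 1.33. GLYMA_08G113200 and GLYMA_13G317300 thus stayed within 1.6-fold under each scaling except that over all expressed genes with the anther included, and GLYMA_14G044500 under each except the 2 median-of-ratios scalings with the anther included.

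GLYMA_13G011900 met the rule by the narrowest margin and differed from the others in how it varied. Its mean was 75.1 FPKM and its libraries ran from 40.9 to 132 FPKM, a ratio of 3.23, with a median coefficient of variation of 19.6% within groups, the highest of the 57. Its values were 43.7, 75.9 and 74.4 FPKM in control sepals, 62.9, 83.5 and 132 in control stigmas, 125, 107 and 67.9 in sepals and 62.0, 77.3 and 47.9 in anthers under combined stress. Replicates of a group thus differed by up to about 2-fold, and this was the only gene of the 57 whose highest and lowest groups overlapped. Its SD of log2 FPKM was 0.33 within groups and 0.19 between group means. When replicate 1, 2 or 3 was left out of every group its ratio was between 1.78 and 2.02, over the limit each time.

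Its level went with that of another kind of identifier. Besides the GLYMA_ genes, 119 of 1250 identifiers beginning with ENSRNA also met both conditions, with ratios between 1.5 and 1.6. They moved almost as a unit over the 48 libraries (median Pearson r of each with the sum of the others 0.998, lowest 0.891). The summed FPKM of the 119 in control sepals ran from 5384 to 8885 FPKM, and over all libraries it ran up to 15161 FPKM in a control stigma and down to 4712 in a stigma under combined stress. GLYMA_13G011900 had its highest and lowest values in these same stigma libraries, at 132 and 40.9 FPKM.

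**Figure D5:**
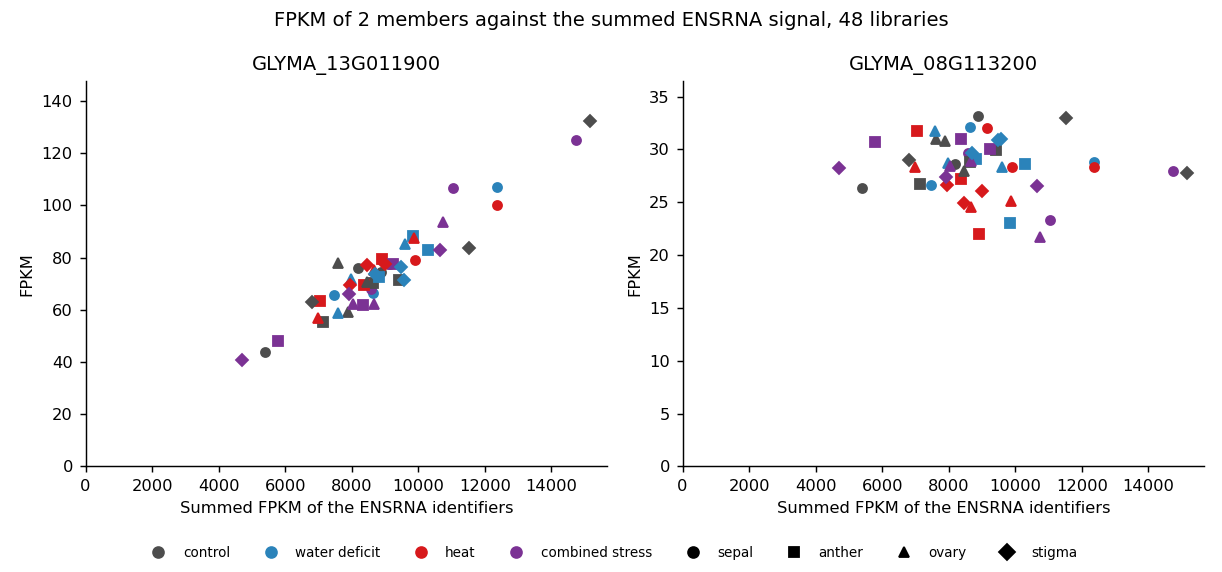
FPKM of GLYMA_13G011900 (left) and of GLYMA_08G113200 (right) against the summed FPKM of the 119 ENSRNA identifiers that met the same conditions, in 48 libraries (points; color, treatment; shape, organ), all axes from 0. The left points follow a rising line from 40.9 to 132 FPKM and the right points do not.

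Over the 48 libraries GLYMA_13G011900 had a Pearson r of 0.944 and a Spearman rho of 0.889 with that sum. Without the 2 libraries farthest from the median of the sum r was 0.923, and for deviations from group means it was 0.938. For the other 56 genes r lay between -0.461 and 0.0925, and 0 of 1144 further genes at the floor reached 0.9. The points share libraries and their scaling, and the relation was noticed after the values were seen, so no p is given. The cause of the relation was not tested.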

How the data were processed

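The authors aligned paired reads of 150 bases with HISAT2 2.2.1, per the submitters' processing notes, and deposited FPKM values in a separate file for each organ, 12 libraries in each. How fragments were counted, and on which genome build and annotation, the sources used here do not say. The members, the gene lists and the tests were chosen with earlier results of these data known.

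Group means were taken from the deposited FPKM (Python 3.11.15, pandas 2.3.3, numpy 2.4.6; figures with matplotlib 3.10.9), and the rule was applied to the 55897 GLYMA_ identifiers. For the tests, log2(FPKM + 1) of the 12 libraries of an organ was fitted in limma 3.58.1 (R 4.3.3, tables read with version 1.17.8 of data.table), with trend and robust moderation and each organ apart. A gene entered where any of the 4 group means was at least 1 FPKM, and was called at a Benjamini-Hochberg adjusted p under 0.05 over all genes tested (two-sided). Log2 fold changes are stress minus control on this scale, with limma's standard error (SE). The rule and the fits were tested on simulated data. The libraries of a group are separate pools of flowers, and 0 pairs of libraries were identical.

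Named genes were the 10 with the lowest ratio, the 5 with the highest and the 3 with the lowest mean level, those nearest either limit, and in each comparison the called gene with the largest change. GLYMA_05G155300, GLYMA_02G101700 and GLYMA_05G059200 were named after their values were seen. For lack of gene names, 29 lists of genes by described function, the organ markers and the protein pairs could not be built. No sequence is shown.

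Alternatives were the limits of the rule, group medians and geometric means, other scalings, a pseudocount of 0.1, no filter or a filter at 5 FPKM, the replicate number as a block, and leaving out replicates.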

Additional observations from a re-analysis of the deposited data

Results flagged for a closer look

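The summed FPKM of the 57 genes moved in opposite directions between organs under combined stress. All 3 anther libraries lay above their controls, and all 3 sepal and all 3 ovary libraries lay below theirs. As a share of the summed FPKM of a library, the ovary groups overlapped, with means of 0.445% in the control and 0.444% under combined stress. The change in anthers exceeded that in sepals by 681 FPKM and that in ovaries by 504 FPKM. The difference between organs was not tested, and the direction in anthers depends on the scaling: after median-of-ratios rescaling within the anther the median log2 fold change of the 57 was -0.54. As deposited, these directions were not particular to the 57. Of genes with every group mean at least 20 FPKM, 60.9% had all 3 anther libraries under combined stress above control. Another 12.6% had them all below. In sepals 48.5% had all 3 below and 11.8% above, and in ovaries 46.7% below and 15.3% above. Of the 57, 31 lay all above and 7 all below in anthers. In sepals 26 lay all below and 3 above, and in ovaries 22 below and 6 above.

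GLYMA_06G269600 moved in opposite directions under heat. Its log2 fold change was 0.47 in anthers, where all 3 heated libraries lay above control, and -0.23 in sepals, -0.35 in ovaries and -0.26 in stigmas, where all 3 lay below. These differences between organs were not tested either. The value in anthers was 0.36 without heated replicate 3 and 0.20 after rescaling within the anther.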

How the results depend on the processing

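The number of genes meeting the rule was 14 and 217 with ratio limits of 1.4 and 2, and 167 and 11 with floors of 10 and 50 FPKM. All 14 and all 11 of the stricter sets were among the 57. It was 114 with library sums set equal, and 69 with median-of-ratios scaling over all 48 libraries, where 0 of the 57 still met it. Among alternatives chosen after seeing the data, it was 103 with the genes at the floor as reference (25 of the 57 kept), 441 after median-of-ratios scaling on the 12 groups without the anther (33 kept) and 564 as deposited on those 12 groups. Group medians gave 51 genes (46 kept) and geometric means 56 (55 kept). Leaving out replicates gave 39 to 60 genes and kept 39 to 57.

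Median-of-ratios rescaling within an organ gave 1 of the 57 called under heat in sepals (9.95% of all tested genes called), and under combined stress 10 in sepals (22.0%) and 38 in anthers (36.9%). It moved their median log2 fold change to -0.0749 in sepals under combined stress, and in anthers to -0.23 under heat and -0.54 under combined stress. It reversed GLYMA_18G237000 in anthers under combined stress, to -0.12. Leaving out a library of the 2 groups compared, the number called was 1 to 2 under heat and 10 to 14 under combined stress in sepals, 1 to 6 and 16 to 24 in anthers, 5 to 7 and 8 to 13 in ovaries, and 1 to 3 and 2 to 8 in stigmas. It stayed at 0 under water deficit in every organ and under every alternative. With fewer libraries the fits have less to call with. Over all tested genes the number called in anthers under combined stress was 14480 to 17873 in these fits (17810 with all libraries). The number of the 57 called also rose in places, as from 3 to 6 under heat in anthers without heated replicate 2. There the number over all tested genes rose from 5277 to 6739. The cause of these moves was not tested. Under heat and combined stress, 69 of the 96 counts of the 57 genes called under an alternative stayed within 1.5 times their value and 27 did not.

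Replicate numbers showed no clear pairing of stress with control libraries within an organ. Same-numbered libraries deviated from their group means with correlations of -0.201 to 0.111, at or under 0.1 in 35 of 36 pairs. Pairing of libraries across organs was not examined. With the replicate number as a block, 2 and 15 of the 57 were called under heat and combined stress in sepals (9.55% and 21.8% of all tested genes), 2 and 23 in anthers (15.5% and 60.9%), 7 and 12 in ovaries (14.8% and 25.6%) and 3 and 8 in stigmas (11.6% and 23.4%). The alternatives on protein identity were not run, since no protein sequences were used here. Depth is known only in relative terms, so counting error at 20 FPKM is unknown.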
